A study of Mus musculus with 13 samples.

Results

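The 10 genes Ear1, Ear2, Atp6v0d2, Chil3, Marco, Siglecf, Pparg, Itgax, Plet1 and Mrc1, which mark alveolar macrophages in mouse lung, were chosen by symbol from 46679 gene IDs, and all 10 were in both tables. RNA was sequenced from female FVB mice aged 10 weeks. The groups were 3 libraries of breast tumor (mice 6877, 6880 and 6881), 4 of tumor-bearing lung (the same 3 mice and mouse 6879) and 6 of normal lung (mice 6886, 6887, 6888 and 6893, labelled as having no tumor). Each tumor came from 250000 Met1 cells, a single mouse breast cancer line, injected into the inguinal mammary fat pad when the mouse was 8 weeks old and left for 2 weeks. The labels give no injection for the normal mice. The design asks how the lung changes when a tumor grows far from it.

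Each library is bulk RNA of 20 mg of frozen tissue, so fewer macrophages and less of a transcript per macrophage cannot be told apart in any value given here. The libraries were made in 2 preparation batches, and the batch moved most of these genes. Batch 1 held tumor-bearing lungs 6879, 6880 and 6881 and normal lungs 6886 and 6888. Batch 2 held the 3 tumors, tumor-bearing lung 6877 and normal lungs 6886, 6887, 6888 and 6893. Normal lungs 6886 and 6888 were thus prepared in both batches. Libraries held 8321037 to 13982903 estimated counts, and protein-coding genes took 45.6 to 69.6% of them. The tissue labels matched their markers: a list of 8 lung genes summed to 24.2 to 37.3 CPM (counts per 1000000 of the scaled library size) in the tumors and to 8887 to 18810 CPM in the lungs.

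Alveolar macrophages live on the air side of the alveolus, where they take up surfactant lipid, dust and microbes. They arise from fetal monocytes and need GM-CSF, made by alveolar epithelium, which induces the nuclear receptor PPARγ and with it a program of lipid handling. TGF-β is also needed for their identity. Of the 10 genes, Chil3, Ear1 and Ear2 encode secreted proteins, Siglecf, Itgax, Marco, Mrc1 and Plet1 surface proteins, Pparg the nuclear receptor and Atp6v0d2 a subunit of the vacuolar proton pump. None of them is confined to this cell: Itgax is shared with dendritic cells, Mrc1 with tissue and tumor macrophages, Pparg with fat cells, Siglecf with eosinophils and Plet1 with some epithelia.

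Both pairs of near-identical copies among these families bear on how far a value belongs to 1 gene. Ear1 (GRCm38 chr14:43818765-43875517, minus strand) and Ear2 (chr14:44102654-44103534, plus strand) are eosinophil-associated ribonucleases of 1 cluster. Chil3 (chr3:106147554-106167564, minus strand) lies near its paralog Chil4. RefSeq promoters on GRCm38.p6, from 250 bases before to 50 bases after the start, are printed to show that the likeness runs upstream of the RefSeq starts. The span given above for Ear1 reaches further upstream, so its printed promoter lies inside that span. The letters AGGAAG or their complement CTTCCT, the core that the macrophage factor PU.1 can bind, are in capitals.
Ear1, chr14:43819590-43819889, minus strand: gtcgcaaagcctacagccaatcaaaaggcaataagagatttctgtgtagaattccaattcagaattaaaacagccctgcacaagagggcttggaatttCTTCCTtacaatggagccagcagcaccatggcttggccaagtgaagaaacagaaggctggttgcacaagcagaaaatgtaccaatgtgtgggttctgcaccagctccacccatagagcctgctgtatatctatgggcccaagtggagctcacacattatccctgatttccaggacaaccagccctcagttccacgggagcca
Ear2, chr14:44102404-44102703, plus strand: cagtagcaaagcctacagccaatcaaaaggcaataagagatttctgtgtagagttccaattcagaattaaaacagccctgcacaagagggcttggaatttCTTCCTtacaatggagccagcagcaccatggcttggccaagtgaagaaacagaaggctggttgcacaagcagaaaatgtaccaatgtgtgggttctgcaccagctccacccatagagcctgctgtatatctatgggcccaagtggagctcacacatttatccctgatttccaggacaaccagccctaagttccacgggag
Chil3, chr3:106167515-106167814, minus strand: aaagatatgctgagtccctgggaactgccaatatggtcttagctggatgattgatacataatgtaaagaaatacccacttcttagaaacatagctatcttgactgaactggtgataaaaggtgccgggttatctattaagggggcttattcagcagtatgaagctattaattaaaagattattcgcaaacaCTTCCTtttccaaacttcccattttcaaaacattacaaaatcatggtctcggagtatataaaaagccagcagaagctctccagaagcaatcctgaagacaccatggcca
Chil4, chr3:106219430-106219729, minus strand: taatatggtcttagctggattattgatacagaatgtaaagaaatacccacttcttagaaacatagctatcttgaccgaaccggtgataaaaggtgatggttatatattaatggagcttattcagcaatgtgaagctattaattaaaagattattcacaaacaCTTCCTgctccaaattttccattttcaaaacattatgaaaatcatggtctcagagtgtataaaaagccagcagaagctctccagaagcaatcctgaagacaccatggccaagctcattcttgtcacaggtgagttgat

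In local alignments the Ear1 and Ear2 promoters were identical at 294 of 297 aligned bases (99.0%). Those of Chil3 and Chil4 were identical at 251 of 271 (92.6%). Of the windows of 75 bases, the read length, in annotated Ear1 transcripts, 60.7% (388 of 639) occurred in no other gene, and the rest also in Ear2, Ear10, Ear-ps2 or Ear-ps9. The share was 76.6% for Ear2, 87.0% for Chil3, 93.6% for Plet1 and 95.0% for Itgax, and 100% for the other 5 members. The levels of Ear1 and Ear2 are thus uncertain to the extent that the authors' estimation split shared reads. Chil4 was at 0 to 1.07 CPM in every library, against up to 514 CPM for Chil3. Reads of Plet1 can overlap its antisense gene Plet1os, whose own level was at most 1.36 CPM. AGGAAG on either strand was in 6 of 11 promoters of 9 members, against 35.4% of 32851 promoters of the same length in the table; a match is a description of the letters alone. TATAAA on either strand was in 3 of the 11, in Chil3, Pparg and Plet1, against 13.6% of all promoters. No promoter of Atp6v0d2 was used.

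In TPM, which divides by transcript length so that genes can be set side by side, Plet1 stood first in the tumors at 5.08 ± 2.5 TPM (SD, n = 3), with no overlap to the next. Itgax (0.687 ± 0.19 TPM), Pparg (0.659 ± 0.819 TPM) and Mrc1 (0.62 ± 0.307 TPM) overlapped each other. Chil3 (0.149 ± 0.161 TPM), Marco (0.0383 ± 0.0348 TPM) and Atp6v0d2 (0.031 ± 0.00841 TPM) had lower means, and Siglecf, Ear2 and Ear1 the lowest, of 0.0109, 0.00973 and 0.00441 TPM.

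The order differed in the lungs, where Chil3, which encodes the chitinase-like lectin Ym1, stood far above the other members. In the 3 batch 1 lungs of tumor-bearing mice Chil3 averaged 16.9 ± 6.13 TPM, Ear2 1.06 ± 0.479 TPM and Marco, the last, 0.0129 ± 0.00329 TPM, and from Ear2 to Siglecf each gene overlapped the next in range. In the 4 normal lungs of batch 2 Chil3 averaged 129 ± 27.3 TPM (SD, n = 4), next came Ear2 at 8.07 ± 1.27 TPM and Ear1 at 5.84 ± 0.548 TPM, and the ranges of these 3 did not overlap. Plet1 (2.47 ± 0.426 TPM), Atp6v0d2 (1.66 ± 0.344 TPM), Mrc1 (1.29 ± 0.204 TPM), Pparg (1.13 ± 0.815 TPM), Itgax (1.13 ± 0.254 TPM) and Siglecf (0.722 ± 0.187 TPM) followed, each overlapping the next in range. Marco was last at 0.132 ± 0.148 TPM.

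TPM divides by a total that a few abundant RNAs can shift: the median of all tested genes moved by -0.23 on the log2 scale between tumor-bearing and normal lung in TPM, against 0.01 in the fit of counts. Samples are therefore compared below in CPM of TMM-scaled libraries.

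**Figure D1:**
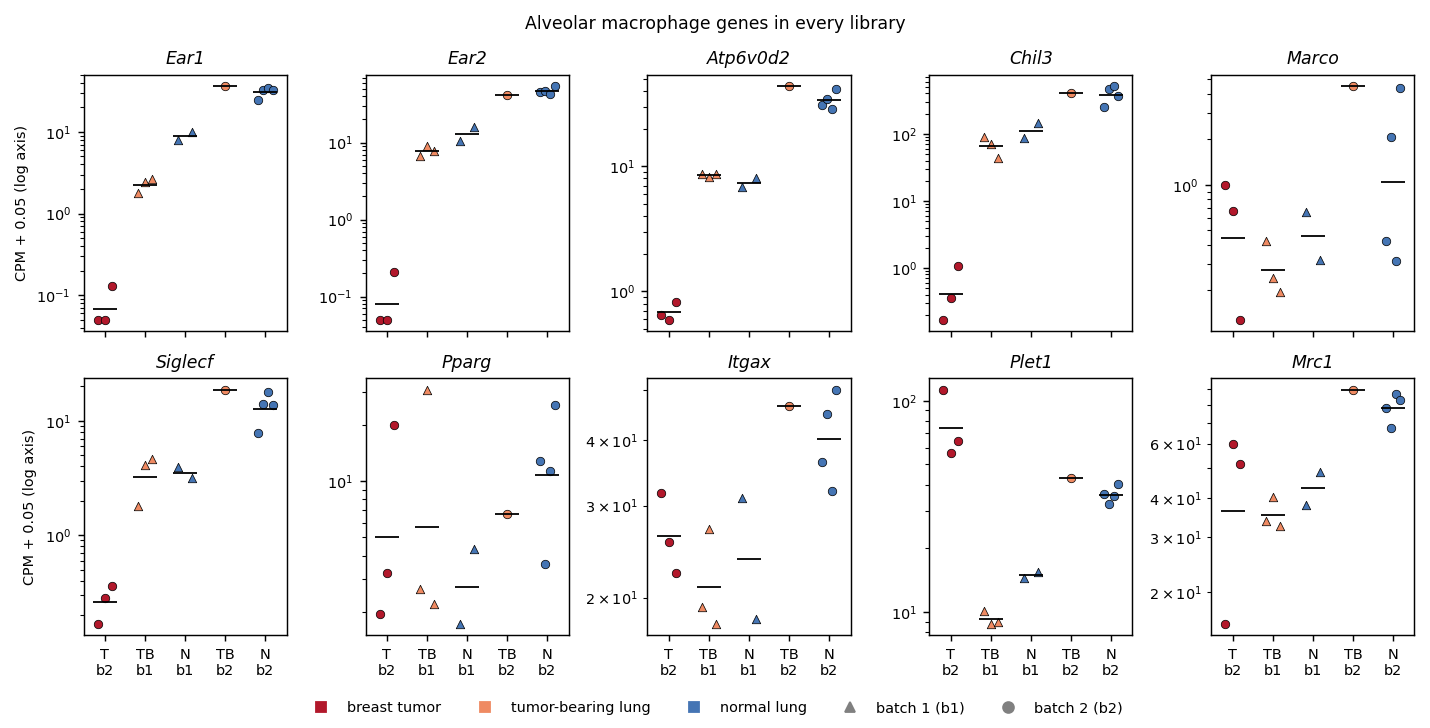
CPM + 0.05 on a log axis for the 10 genes in all 13 libraries, with tumors (T), tumor-bearing lungs (TB) and normal lungs (N) by preparation batch (b1, triangles; b2, circles); short lines are geometric means. Ear1, Ear2, Atp6v0d2, Chil3 and Siglecf lie lower in the 3 tumors than in all lungs, and within the lungs batch 1 lies below batch 2 for most genes, with the single batch 2 tumor-bearing lung beside the batch 2 normal lungs.

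The secreted products of the alveolar macrophage were nearly absent from the tumors. Ear1 was at 0, 0 and 0.0777 CPM in tumors 6877, 6880 and 6881, a total of 1 count. It was at 1.74, 2.38 and 2.6 CPM in tumor-bearing lungs 6879, 6880 and 6881 and at 36.2 CPM in tumor-bearing lung 6877. Normal lungs had 7.88 and 9.94 CPM in batch 1 and 24.5, 33.0, 34.7 and 32.5 CPM in batch 2 (mice 6886, 6887, 6888 and 6893). No lung overlapped a tumor. The ratio of tumors to tumor-bearing lungs was 0.00303 (exact 95% interval of the counts, 7.67e-05 to 0.017) and that of tumors to normal lungs 0.00144 (3.64e-05 to 0.00804); these intervals cover counting error alone. The ratios are not adjusted for batch, although 3 of the 4 tumor-bearing lungs are of batch 1 and the tumors of batch 2. The fit with the batch term gave a log2 of -9.12 (SE 0.8, edgeR adjusted p = 3.7e-06) against tumor-bearing lung and -10.21 (adjusted p = 1.1e-06) against normal lung. Against tumor-bearing lung it was -9.77 with batch 2 alone, -7.72 without tumor-bearing lung 6877 and -11.01 without tumor 6881, which holds the only count. Against normal lung it was -12.09 without that tumor. With so few counts these fitted values depend on the prior count and are no bounds.

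Ear2 followed the same pattern, with 0, 0 and 0.155 CPM in the tumors. Tumor-bearing lungs had 6.6, 9.07 and 7.66 CPM in batch 1 and 41.0 CPM in batch 2. Normal lungs had 10.3 and 15.9 CPM in batch 1 and 45.7, 47.2, 43.4 and 54.0 CPM in batch 2. The ratio was 0.00387 (0.000468 to 0.014) to tumor-bearing lungs and 0.00189 (0.000229 to 0.00684) to normal lungs, on 2 counts in all tumors, and is not adjusted for batch. The fit with the batch term gave -9.04 and -9.61 (edgeR adjusted p = 1.58e-07 and 5.94e-08). These moved to -11.71 and -12.29 without tumor 6881, which holds both counts, and to -8.44 and -9.02 without tumor 6880.

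Chil3 had 0.119, 0.311 and 1.01 CPM in the tumors. It had 89.9, 71.1 and 43.8 CPM in the batch 1 tumor-bearing lungs and 401 CPM in that of batch 2. Normal lungs had 87.5 and 143 CPM in batch 1 and 249.6, 463 (mouse 6887), 514 and 373 CPM in batch 2. The tumors lay below every lung, by a log2 of -9.29 (SE 0.57) against tumor-bearing lung and -9.79 (SE 0.57) against normal lung (edgeR adjusted p = 2.51e-07 and 1.28e-07). Without tumor 6881 the changes were -10.4 and -10.9.

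Atp6v0d2 and Siglecf were low in the tumors by a smaller factor. Atp6v0d2 (chr4:19876841-19922605, minus strand) had 0.594, 0.545 and 0.777 CPM in the tumors and 8.71, 8.24, 8.6 and 43.6 CPM in tumor-bearing lungs 6879, 6880, 6881 and 6877. Normal lungs had 6.73 and 7.99 CPM in batch 1 and 31.0, 34.8, 28.8 and 41.6 CPM in batch 2. It was the most even member among the batch 1 lungs, and the tumors fell below all lungs by a log2 of -6.07 (SE 0.25) against tumor-bearing and -5.86 (SE 0.24) against normal lung (edgeR adjusted p = 2.17e-08 and 1.44e-08).

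Siglecf (chr7:43351341-43359531, plus strand), a sialic acid-binding inhibitory receptor, had 0.119, 0.234 and 0.311 CPM in the tumors. Tumor-bearing lungs had 1.74, 4.05, 4.63 and 18.5 CPM in the same order, and normal lungs 3.9 and 3.11 CPM in batch 1 and 7.71, 13.9, 17.8 and 13.6 CPM in batch 2. The tumors lay below every lung, with log2 changes of -6.09 (SE 0.49) and -5.92 (SE 0.47) and edgeR adjusted p = 1.98e-06 and 1.4e-06. Markers were also read for the eosinophil, the other cell known for Siglecf and for ribonucleases of the Ear family. The 8 eosinophil genes summed to 3.68 to 6 CPM in the tumors, 2.89 to 8.34 CPM in the tumor-bearing lungs and 3.64 to 7.51 CPM in the normal lungs. Prg2, a granule protein, was at 0 in all 13 libraries, Epx, the eosinophil peroxidase, at most at 0.265 CPM and the chemokine receptor Ccr3 at most at 0.595 CPM. The cytokine receptor chain gene Il5ra was at 1.19 to 1.63 CPM in the tumors, 1.37 to 2.99 CPM in tumor-bearing lungs and 1.22 to 3.89 CPM in normal lungs. Siglece was at 1.78 to 3.58 CPM in the tumors, 0.867 to 4.23 CPM in tumor-bearing lungs and 1.15 to 2.29 CPM in normal lungs. Il5ra and Siglece were in the range of Siglecf in the batch 1 lungs, but Siglece is not confined to eosinophils. Both had the highest group means on the list, so its sum is no measure of eosinophils alone. The part of eosinophils in Siglecf, Ear1 and Ear2 was not tested.

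Plet1 was the 1 member higher in the tumors. Its protein is anchored in the membrane and was first described in placenta. Plet1 (chr9:50494525-50505482, plus strand) had 112, 56.7 and 64.6 CPM in the tumors, above all lungs. Tumor-bearing lungs had 10.1, 8.75, 8.89 and 42.9 CPM, and normal lungs 14.4 and 15.4 CPM in batch 1 and 36.2, 32.4, 35.2 and 40.3 CPM in batch 2. The log2 change was 1.21 (SE 0.32, edgeR adjusted p = 0.00801) against tumor-bearing and 0.88 (SE 0.3, adjusted p = 0.0276) against normal lung. Within batch 2 it was 1.13 (SE 0.22, adjusted p = 0.00208) against normal lung and, with 1 tumor-bearing lung, 0.9 (SE 0.36, adjusted p = 0.0824) against that lung. The call against normal lung was lost without tumor 6877 (0.53, adjusted p = 0.114), without normal lung 6887 (0.65, adjusted p = 0.152) or without normal lung 6893 (0.82, adjusted p = 0.107), and with limma on log2 TPM (0.58, adjusted p = 0.143). A list of 10 mammary tumor epithelial genes summed to 957 to 1308 CPM in the tumors and 376 to 604 CPM in the lungs. In the tumors against normal lung 7 of them rose and 1 fell, while 24.5% of all genes rose and 24.7% fell. The part of this epithelium in Plet1 was not tested.

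Itgax, Mrc1 and Pparg, which other macrophages, dendritic cells or fat cells share, overlapped the lungs in level. Itgax (chr7:128129547-128150657, plus strand), the integrin αX chain known as CD11c, had 31.7, 25.5 and 22.2 CPM in the tumors. Tumor-bearing lungs had 19.2, 27.0, 17.8 and 46.6 CPM, and normal lungs 31.0 and 18.1 CPM in batch 1 and 36.4, 45.0, 31.9 and 49.9 CPM in batch 2. The tumors overlapped the batch 1 lungs and lay just below the batch 2 lungs. Adjusted for batch the log2 change was -0.88 (SE 0.25, adjusted p = 0.011) against normal lung and -0.74 (SE 0.27, adjusted p = 0.0418) against tumor-bearing lung. The second was not called in the fit with the mouse as a replicate block (-0.15, SE 0.24, adjusted p = 0.64), which sets each tumor beside the lung of its own mouse (tumor and lung were both of batch 2 for mouse 6877 and of different batches for 6880 and 6881), nor by DESeq2 (adjusted p = 0.0807).

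Mrc1 (chr2:14229392-14332057, plus strand), the mannose receptor CD206, had 15.8, 59.9 and 51.5 CPM in the tumors, with tumor 6877 apart from the other two. Tumor-bearing lungs had 33.9, 40.3, 32.5 and 89.1 CPM, and normal lungs 38.2 and 48.7 CPM in batch 1 and 77.8, 67.3, 86.5 and 82.6 CPM in batch 2. All 3 tumors lay below the 5 lungs of batch 2 and overlapped those of batch 1. The log2 changes of -0.85 (SE 0.42, adjusted p = 0.117) against tumor-bearing and -0.94 (SE 0.39, adjusted p = 0.0648) against normal lung did not pass edgeR's test. DESeq2 (adjusted p = 0.0329), voom (adjusted p = 0.0373) and edgeR without tumor 6880 (-1.26, adjusted p = 0.027) did call the change against normal lung.

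Pparg (chr6:115360951-115490399, plus strand) had the largest standard error of the members tested in each comparison fitted to both batches. It had 1.9, 3.19 and 20.0 CPM in the tumors, 2.61, 30.6, 2.17 and 6.59 CPM in the tumor-bearing lungs, 1.68 and 4.26 CPM in the normal lungs of batch 1 and 12.8, 3.57, 11.2 and 25.5 CPM in those of batch 2. Every group spanned several-fold and overlapped every other. The log2 changes were -1.33 (SE 1.6, edgeR adjusted p = 0.522) and -0.34 (SE 1.17, adjusted p = 0.835), and the direction turned when single libraries were left out. In the tumors the 9 other genes of a fat cell list summed to 159.9, 380 and 435 CPM (mice 6877, 6880 and 6881). The fat cell gene Plin1 was highest in tumor 6880, at 45.6 CPM, against 38.4 CPM in tumor 6881, which had the most Pparg. In the lungs the 9 genes summed to 29.2 to 65.0 CPM, and Lipe, at 17.6 to 33.1 CPM, was the largest part. The lungs with the most Pparg, tumor-bearing lung 6880 and normal lung 6893, had the lowest sums, 29.2 and 35.1 CPM. Their Plin1 was at 1.09 and 1.74 CPM, within the 0.382 to 4.98 CPM of all lungs. The part of fat cells in Pparg was not tested.

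Marco (chr1:120474538-120505024, minus strand), a scavenger receptor for bacteria and particles, gave few counts. It had 0.951, 0.623 and 0.0777 CPM in the tumors (8, 8 and 1 counts), 0.373, 0.193 and 0.145 CPM in the batch 1 tumor-bearing lungs and 4.46 CPM in that of batch 2. Normal lungs had 0.612 and 0.266 CPM in batch 1 and 0.374, 2.04, 0.265 and 4.3 CPM in batch 2. Normal lungs 6886 and 6888 were under 1 CPM in both of their libraries, on 3 to 8 counts each. All 5 batch 1 lungs were under 1 CPM, and no lung above 1 CPM was prepared in both batches. The log2 changes of -2.63 (SE 0.77, adjusted p = 0.0154) and -2.83 (SE 0.74, adjusted p = 0.00753) in the tumors rest on the batch term, since in CPM 2 of the 3 tumors lay above all 7 lung libraries with under 1 CPM. Within batch 2 the change was -3.02 (SE 1.28, adjusted p = 0.1) against tumor-bearing and -1.69 (SE 1.02, adjusted p = 0.187) against normal lung, neither of them called.

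In the tumors against normal lung, 7 of the 10 members fell and 1 rose; of all 18297 genes tested, 49.3% were called, 24.7% as lower and 24.5% as higher. Against tumor-bearing lung the same counts were found, 7 and 1, against 46.3% of all genes called, 23.7% as lower and 22.6% as higher. The 2 comparisons share the tumors. Without overlap between the 3 tumors and all 10 lung libraries were 5 members as lower (Ear1, Ear2, Atp6v0d2, Chil3 and Siglecf) and Plet1 as higher, against 22.3% and 22.4% of all genes. None of these counts, of calls or of members without overlap, is support of its own, because Ear1, Ear2, Siglecf and Marco reached 10 counts in 0 of 3 tumors, and Atp6v0d2 and Chil3 in 1 of 3: they passed the filter on low counts through the lungs and had to differ. The 5 remained called in the fit with the mouse as a replicate block, with Plet1 at a log2 of 2.26 (SE 0.35, adjusted p = 0.00324); 9 members were tested there, without Marco, and 44.8% of all genes were called. In batch 2 alone 5 members were called against tumor-bearing lung and 7 against normal lung, against 34.7% and 56.8% of all genes.

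**Figure D2:**
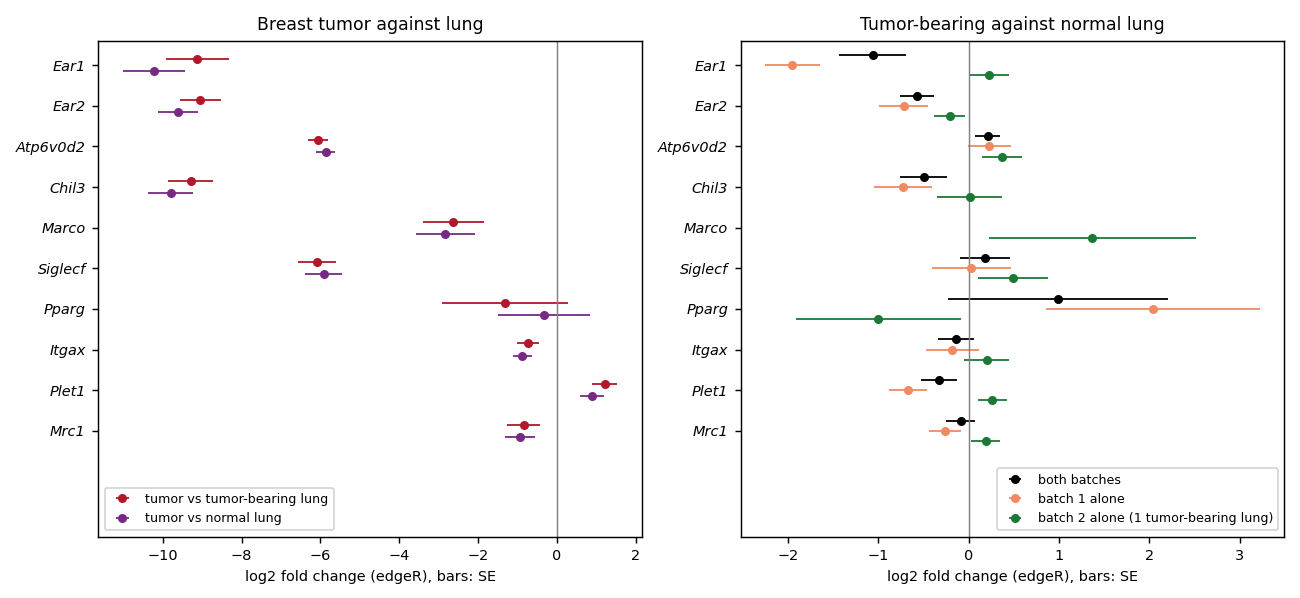
Log2 fold changes with their standard errors from edgeR for the tumors (left) and for tumor-bearing against normal lung (right, with each batch alone). On the left 5 genes lie below -5 and Plet1 above 0 in both comparisons; on the right all values of both batches together are within 1.1 of 0, and for Ear1, Chil3, Pparg, Itgax, Plet1 and Mrc1 the 2 batches lie on different sides of 0.

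Lists of other genes were described in the same comparison of tumor with normal lung. A fall in the tumors was not particular to alveolar macrophage genes, and of all genes tested 24.7% fell and 24.5% rose. The 10 genes of alveolar type 2 and club cells had a median log2 change of -9.89, with 9 lower and 1, Plet1, higher. The 6 tested lymphatic endothelial genes had a median of -4.21, and all 6 fell. Of those that fell, 2 and 3 reached 10 counts in at most 1 tumor and had to differ. Of 25 tested genes of a second alveolar macrophage list, 16 fell and 4 rose against normal lung, with a median log2 change of -1.71, against -0.04 for all genes. Of the 16 that fell, 4 (Fabp1, Ear6, Ear10 and F7) reached 10 counts in 0 of 3 tumors. They passed the filter through the lungs and had to differ, so their values below are no support. The other 12 reached it in more than 1 tumor. Ear6 was at 0 CPM in all tumors, 0.434 to 3.68 CPM in tumor-bearing lungs and 0.994 to 5.87 CPM in normal lungs. Ear10 was at 0 to 0.156 CPM in the tumors, against 1.54 to 11.1 and 3.13 to 12.6 CPM. The cholesterol exporter Abcg1 (-3.26, SE 0.21), coagulation factor F7 (-4.97, SE 0.45), the lectin-like receptor Olr1 (-4.18, SE 0.81) and the cytokine Il18 (-2.78, SE 0.42) fell too.

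The 4 that rose were Fabp4, Bhlhe41, Cidec and Perp. Fabp4 and Cidec, both also fat cell genes, rose by a log2 of 5.13 (SE 0.46) and 1.63 (SE 0.46), Bhlhe41, a transcription factor, by 2.45 (SE 0.26) and Perp, a desmosome protein, by 1.38 (SE 0.23), all with edgeR adjusted p of at most 0.0115. Of the 9 tested fat cell genes 6 rose and 0 fell in the tumors against normal lung, while 24.5% of all genes rose and 24.7% fell. Among the 6 was Adipoq at 6.18 to 18.04 CPM, against 0 to 1.24 CPM in tumor-bearing and 0 to 1.27 CPM in normal lungs. The part of fat cells in Fabp4 and Cidec was not tested.

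Of 16 genes of the GM-CSF and TGF-β axis, 8 fell and 3 rose in the tumors against normal lung. Of all genes 24.7% fell and 24.5% rose. Among the 8, 2 (Csf2 and Car4) reached 10 counts in 0 of 3 tumors and had to differ. Csf2, which encodes GM-CSF, was at 0 CPM in the 3 tumors, 0.289 to 1.26 CPM in tumor-bearing lungs and 0.178 to 1.7 CPM in normal lungs. Its receptor chains Csf2ra (-0.87, SE 0.21) and Csf2rb (-0.67, SE 0.23) fell, as did Tgfbr2 (-1.01, SE 0.18), the β6 integrin gene Itgb6 that serves TGF-β activation (-2.72, SE 0.3), Stat5b (-0.86, SE 0.21), and the transcription factor gene Klf4 and the carbonic anhydrase gene Car4 (-3.95, SE 0.34 and -6.78, SE 0.25). Cebpb (1.61, SE 0.27), Stat5a (1.36, SE 0.27) and Itgav (1, SE 0.22) rose. Among 15 lipid handling genes of PPARγ, 6 fell and 2 rose; the scavenger receptor Cd36 (-4, SE 0.28), the phospholipid transfer protein Pltp (-3.6, SE 0.19) and the oxysterol receptor Nr1h3 (-2.53, SE 0.29) fell, while Plin2 (0.14, SE 0.27, edgeR adjusted p = 0.707) and Abca1 (-0.18, SE 0.26, adjusted p = 0.595) were not called. The 8 of 15 called lie near the 49.3% of all genes.

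Of 15 genes common to macrophages, 7 rose and 3 fell in the tumors against normal lung, with a median of 0.58. Cd14 (2.9, SE 0.2), the Fc receptor Fcgr1 (2.06, SE 0.37) and the scavenger receptor Msr1 (1.9, SE 0.42) rose, Lyz2 (-2.26, SE 0.23), Mertk (-2.84, SE 0.21) and Laptm5 (-0.91, SE 0.26) fell, and the receptor Csf1r (0.24, SE 0.2, edgeR adjusted p = 0.345) was not called. Of 14 genes of interstitial and tissue macrophages, 7 rose and 2 fell. The 2 that fell were Cbr2 (-6.68, SE 0.35), the largest change on the list in either direction, and Tmem176b (-0.46, SE 0.17). Lyz2 and Cbr2 are not confined to macrophages, as lung epithelium expresses them too. The complement genes C1qa, C1qb and C1qc rose by 3.03, 3.21 and 3.25 (SE 0.28 to 0.31), with C1qa at 90.8 to 178.6 CPM in the tumors, 10.95 to 15.2 CPM in tumor-bearing and 10.2 to 19.0 CPM in normal lungs. Of 10 genes of alternatively activated macrophages 4 rose and 0 fell, with Arg1 at 3.24 (SE 0.54) and Clec10a at 2.78 (SE 0.42). With 49.3% of all genes called, 4 of 10 is no more than the share of all genes, and nothing is read from these counts about the list.

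**Figure D3:**
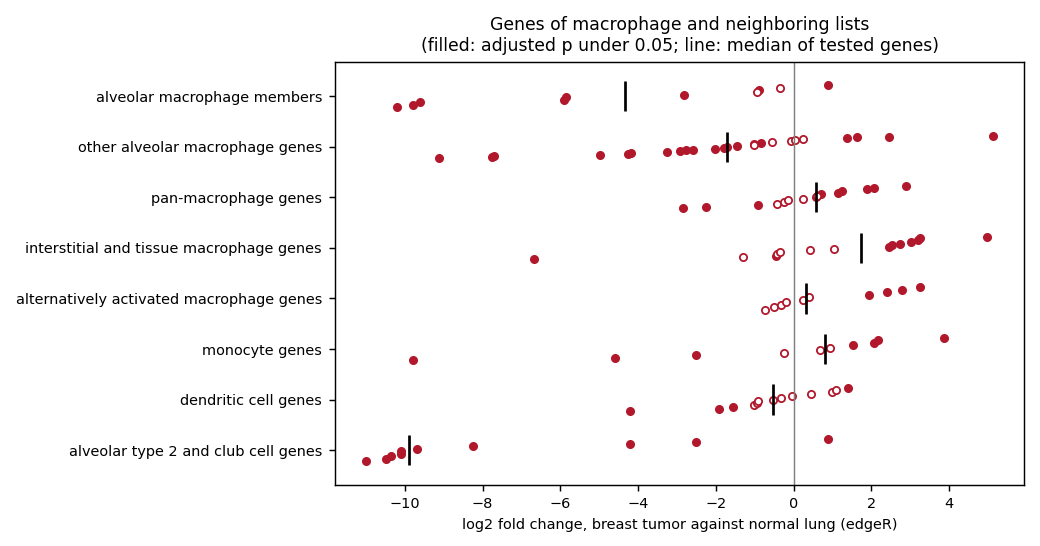
Log2 fold changes of tumor against normal lung (edgeR) for the tested genes of 8 lists, filled where the adjusted p was under 0.05, with the median as a line. The members and the second alveolar macrophage list have medians of -4.35 and -1.71, the common and the interstitial macrophage lists medians of 0.58 and 1.75. The alveolar type 2 and club cell list lies lowest, with a median of -9.89.

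In the lungs of tumor-bearing mice against those of normal mice, none of the 9 members tested was called by edgeR's quasi-likelihood test, and Marco did not pass the filter on low counts. Of all 16727 genes 0.0359% were called, which is 6, and 2342 had an unadjusted p below 0.05. So did 2 of the members, Ear1 at a log2 of -1.06 (SE 0.37, adjusted p = 0.281) and Ear2 at -0.57 (SE 0.19, adjusted p = 0.259). DESeq2, which called 1.37% of the genes it tested, and voom called 0 members. This does not show that the levels were alike.

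The other members gave -0.5 (SE 0.26, adjusted p = 0.422) for Chil3, -0.33 (SE 0.2) for Plet1, -0.14 (SE 0.2) for Itgax and -0.09 (SE 0.16) for Mrc1. Atp6v0d2 gave 0.21 (SE 0.14), Siglecf 0.18 (SE 0.28) and Pparg 0.99 (SE 1.22). The groups of 4 lungs overlapped for all 9 members, while 3.04% of all genes were lower and 2.64% higher in all 4 tumor-bearing lungs. These levels are not adjusted for batch. Both groups held lungs of both batches, and all 9 members read higher in batch 2 than in batch 1 in the repeat libraries, so nothing is read from the overlap.

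The 2 batches gave different values, though neither called a member when fitted alone, with 0.226% of all genes called in batch 1 and 0.0414% in batch 2. In batch 1 (3 tumor-bearing lungs against 2 normal lungs) Ear1 was at 1.74 to 2.6 CPM in tumor-bearing lungs, against 7.88 and 9.94 CPM in normal lungs, a log2 change of -1.95 (SE 0.3, adjusted p = 0.061). Ear2 (-0.72, SE 0.27) and Plet1 (-0.67, SE 0.21) were also lower in all 3 tumor-bearing lungs, Chil3 (-0.73, SE 0.32) overlapped, and Atp6v0d2 was slightly higher in all 3 (0.23, SE 0.24). In that batch 20.8% of all genes were lower and 17.8% higher without overlap. In batch 2 the only tumor-bearing lung, 6877, gave 0.23 (SE 0.22) for Ear1, -0.21 (SE 0.17) for Ear2, 0.01 (SE 0.36) for Chil3, 0.26 (SE 0.16) for Plet1 and 0.37 (SE 0.22) for Atp6v0d2. It had the most Ear1, Atp6v0d2, Marco, Siglecf, Plet1 and Mrc1 of the 5 lungs of batch 2 and the least Ear2.

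Without tumor-bearing lung 6877, Ear1 was called lower (-1.95, SE 0.23, edgeR adjusted p = 0.0179) among 1.29% of all genes called, 0.945% as lower; it was the only member called. A fit with a group by batch interaction, added after the data were seen, gave a difference between the changes in batch 1 and batch 2 of -2.07 for Ear1 (SE 0.34, adjusted p = 0.113) and -0.9 for Plet1 (SE 0.29, adjusted p = 0.43). It called 0 members, against 0.0658% of all genes. With 1 tumor-bearing lung in batch 2, the batch and that mouse cannot be told apart.

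Other measures differed between these lungs too. Protein-coding genes took 49.0 to 59.0% of the counts in the batch 1 tumor-bearing lungs, against 68.2 and 69.6% in the batch 1 normal lungs, and 45.6% in tumor-bearing lung 6877, against 47.0 to 54.7% in the batch 2 normal lungs. The 10 genes of alveolar type 2 and club cells summed to 9026 to 12160 CPM in the batch 1 tumor-bearing lungs, against 13230 and 14290 CPM in the normal lungs of that batch, and to 20140 CPM in tumor-bearing lung 6877, against 18090 to 19610 CPM; Plet1 is on this list. The 15 common macrophage genes summed to 1588 to 1626 CPM, against 2100 and 2157 CPM in batch 1, and to 3187 CPM, against 3055 to 3616 CPM in batch 2. Lyz2, which alveolar type 2 cells also express, was the largest part of that sum, with means of 873 against 1204 CPM in batch 1. The macrophage sum is thus not separate from the type 2 and club cell list. The median log2 change over the 15 genes was -0.23 in batch 1, with 0 called, and 0.32 in batch 2. For all genes these medians were 0.04 and -0.02. In both batches the 12 neutrophil genes were higher, with 77.0 to 209 CPM, against 23.4 and 24.8 CPM in batch 1 and 187.9 CPM, against 31.0 to 87.4 CPM in batch 2, though 0 of the 8 tested were called and Ly6g was at 0 in all tumor-bearing lungs. The part of any of these in the values of Ear1, Ear2 and Plet1 was not tested.

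Genes of the same program gave no call in tumor-bearing against normal lung. The second alveolar macrophage list had a median log2 change of -0.16 over 24 tested genes, -0.42 in batch 1 and 0.19 in batch 2, against 0.01, 0.04 and -0.02 for all genes. The 5 tested ribonucleases of the Ear family and its relatives had medians of -0.72, -1.1 and 0.01, with Ear6 at -0.88 (edgeR adjusted p = 0.285) and Ear10 at -0.72 (adjusted p = 0.299). These 5 include the members Ear1 and Ear2, while Ear6 and Ear10 are also on the second list, so the medians are not separate evidence. Of the 75-base windows of Ear10, 67.5% occurred in no other gene, the rest also in Ear1, Ear2, Ear-ps2 or Ear-ps9. The chitinase Chia1 gave -0.68 (adjusted p = 0.217), while Rnase6 gave 0.49 (adjusted p = 0.631).

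The repeat libraries give the difference between the batches within the same lung. Fragmentation depended on RNA quality, per the labels, so batch and RNA quality cannot be told apart. Ear1 was at 24.5 CPM in batch 2 against 7.88 CPM in batch 1 for mouse 6886, and at 34.7 against 9.94 CPM for mouse 6888, log2 differences of 1.62 and 1.79. The differences were 2.13 and 1.44 for Ear2, 2.18 and 1.83 for Atp6v0d2, 1.51 and 1.84 for Chil3 and 0.95 and 2.46 for Siglecf. Pparg gave 2.81 and 1.36, Plet1 1.32 and 1.19, Mrc1 1.03 and 0.83 and Itgax 0.23 and 0.81, while Marco gave -0.52 and -0.00 on under 1 CPM. All 9 tested members were higher in both batch 2 libraries than in both of batch 1, which held for 29.2% of all genes, whose medians were 0.00 and -0.01. In TPM the differences were smaller, as all genes had medians of -0.5 and -0.61: 1.14 and 1.21 for Ear1, and for Itgax -0.27 and 0.23. In the fit of both batches, each of the 9 tested members had a smaller log2 change between tumor-bearing and normal lung than either difference in CPM. This did not hold in batch 1 alone for Ear1 (-1.95) and for Pparg (2.04, above the 1.36 of mouse 6888), nor without tumor-bearing lung 6877 (-1.95 and 2.03).

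**Figure D4:**
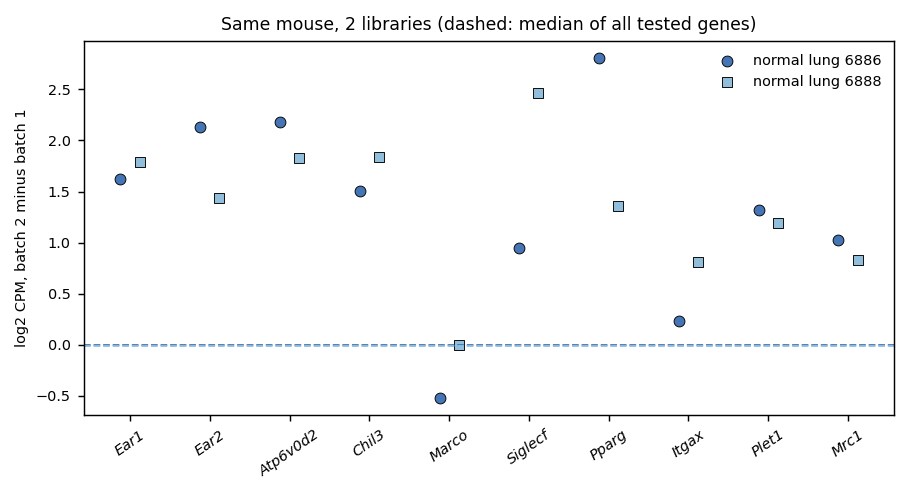
Log2 CPM of batch 2 minus batch 1 for the 2 normal lungs prepared in both batches, per gene; dashed lines are the medians of all tested genes. All genes other than Marco lie above 0 in both mice, from 0.23 to 2.81, and Marco lies at or below 0.

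How far the members varied together within batches was only described. Over the 8 lungs of the lung comparison, after centring each batch, the genes most like the mean of the tested members were Col4a2, Ecm1, Sap130, Arid5b and Tlr5 (Pearson r from 0.97 to 0.984, over 16727 genes). Of the members themselves, which are part of that mean, Mrc1 (r = 0.946), Ear2 (0.823), Ear1 (0.77) and Plet1 (0.761) lay closest to it, Chil3 (0.549), Pparg (0.386), Itgax (0.334) and Siglecf (0.295) followed, and Atp6v0d2 was at -0.13. These values describe 8 libraries that share scaling and batch, and were given no test. A member's own part in the mean raises its r, so the lower of the positive values do not show likeness to the other members.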

How the data were processed

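Per the labels' protocols, libraries came from 100 ng of total RNA after depletion of ribosomal RNA, were fragmented or not by RNA quality (not analysed here) and gave single reads of 75 bases. The submitters' processing notes name Salmon, DESeq2 1.18.1 and mm10. The deposited tables hold the authors' estimated counts (expected counts), not whole numbers and rounded here, and the authors' TPM. Counts divided by TPM differed between 2 libraries by a single factor for all genes (largest deviation 8.88e-15 on the log2 scale over 2898 genes), so both carry the same gene lengths. Of 46679 gene IDs, 46269 were named from GENCODE M21 (GRCm38).

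The mouse was the replicate. edgeR 4.0.16 (R 4.3.3; quasi-likelihood, TMM, filterByExpr at 10 counts, Benjamini-Hochberg threshold 0.05 over all genes) fitted group and preparation batch to 8 lungs, or to 11 libraries where tumors were compared. The batch 1 library was used for normal mice 6886 and 6888. The tumors are all of batch 2, so their batch term comes from the lungs. CPM come from TMM factors over all 13 libraries. Alternatives were other scaling, no filter, DESeq2 1.42.0, voom and limma 3.58.1 on log2(TPM + 1), no batch term, other use of the repeat libraries, single batches, leaving out each library and the mouse as a replicate block. Protein-coding genes alone, the interaction and batch 2 alone for tumor against tumor-bearing lung were added after the data were seen.

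The numbers of tumors and lungs pair 3 animals; residuals of their libraries correlated across genes at 0.179, 0.0355 and -0.133 for mice 6877, 6880 and 6881. The fits were tested on simulated data. Repeat libraries are compared in CPM, beside the TPM first planned. The members and gene lists were chosen with earlier results of these data known; all 10 members are given in full, and of other lists genes called in a comparison, the 3 with the highest TPM and genes whose values bear on a member, the last chosen after their values were seen.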

Additional observations from a re-analysis of the deposited data

Results flagged for a closer look

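Of 20 sets of 4 lungs checked for a library far from the rest (10 genes, tumor-bearing and normal lung, 1 library per mouse), 9 held one. Chance flags about 1 in 20 sets of like and separate values. These sets mix the 2 batches and the 10 genes share the same lungs, so the 9 are not read against that rate. Tumor-bearing lung 6877, the only one of batch 2, stood far above the other 3 for 7 members: Ear1 at 36.2 CPM (others 1.74 to 2.6), Ear2 at 41.0 CPM (6.6 to 9.07), Atp6v0d2 at 43.6 CPM (8.24 to 8.71), Chil3 at 401 CPM (43.8 to 89.9), Marco at 4.46 CPM (0.145 to 0.373), Plet1 at 42.9 CPM (8.75 to 10.1) and Mrc1 at 89.1 CPM (32.5 to 40.3). Its levels lay within or near those of the 4 normal lungs of batch 2, and the mouse and the batch cannot be told apart. For Pparg the far libraries were others: tumor-bearing lung 6880 of batch 1 at 30.6 CPM (2.17 to 6.59) and normal lung 6893 of batch 2 at 25.5 CPM (1.68 to 4.26). The second depends on the library used for the repeated mice: the batch 2 libraries of 6886 and 6888 had 12.8 and 11.2 CPM, and among the 4 batch 2 normal lungs the gap from 6893 to the next was 0.58 of the range, too small to stand apart by the same rule.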

How the results depend on the processing

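The fall of Ear1, Ear2, Atp6v0d2, Chil3 and Siglecf in the tumors kept its direction and its call in both comparisons under every alternative run. The count of members called in tumor against tumor-bearing lung, 8 in the fit as reported, was 5 when the repeated mice entered by their batch 2 library, 5 with batch 2 alone, 6 with the replicate block and 6 to 8 when single libraries were left out; against normal lung it was 6 to 9. In tumor-bearing against normal lung it was 0, and 0 to 1 when single libraries were left out, with Ear1 as the 1 call. The median over members of that difference in mean log2 TPM was -0.4 with a pseudocount of 1 and -0.87 with 0.1. Directions turned in that comparison when the repeated mice entered by their batch 2 library for Ear1 (0.23), Chil3 (0.01), Pparg (-0.99), Itgax (0.2), Plet1 (0.27) and Mrc1 (0.19), with batch 2 alone for the same genes (0.23, 0.01, -1, 0.2, 0.26 and 0.19), with limma on log2 TPM for Atp6v0d2 (-0.13) and Siglecf (-0.06), and with no batch term for Atp6v0d2 (-0.41) and Siglecf (-0.26). Leaving out single libraries gave ranges across 0 for Pparg (-0.67 to 2.03), Itgax (-0.29 to 0.11) and Mrc1 (-0.27 to 0.07) there, and for Pparg in tumor against tumor-bearing lung (-3.03 to 0.02) and against normal lung (-2.04 to 1.64). Pparg in tumor against tumor-bearing lung also turned with the batch 2 library (0.39) and with batch 2 alone (0.43). The cause was not tested. All genes called in tumor-bearing against normal lung were 6 as reported, 275 with no filter, 443 by DESeq2, 90 with limma on TPM, 1 with no batch term, 1 with the batch 2 library, 42 with all libraries as separate, 39 with batch 1 alone and 0 to 221 when single libraries were left out. In tumor against tumor-bearing lung they were 8471, and 5322 with limma on TPM. Marco, Ear1, Ear2 and Siglecf rest on under 10 counts per tumor, which limits their ratios.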

Other observations

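Cells that share members with the alveolar macrophage were described by their own lists. Of 10 monocyte genes tested in tumor against normal lung, 4 rose and 3 fell. The marker of classical monocytes Ly6c2 was at 6.15 to 33.8 CPM in the tumors, 4.91 to 8.33 CPM in tumor-bearing lungs and 2.29 to 5.05 CPM in normal lungs, and rose by a log2 of 2.08 (SE 0.59, edgeR adjusted p = 0.0116). The chemokine receptor gene Ccr2 rose by 1.52 (SE 0.26, adjusted p = 0.000538), F13a1 by 3.86 (SE 0.27) and Vcan by 2.17 (SE 0.56). Those that fell were Ace (-4.59, SE 0.26) and Ly6c1 (-2.51, SE 0.23), both also expressed by endothelium, and Chil3, which is itself on the monocyte list. Of 13 dendritic cell genes, a population that carries Itgax, 1 rose (H2-Ab1, 1.41, SE 0.28) and 3 fell (Clec9a, -4.2, SE 0.39; Cd209a, -1.91, SE 0.41; Zbtb46, -1.57, SE 0.24). Flt3, the cytokine receptor of their precursors, was at -0.05 (SE 0.32, adjusted p = 0.915). The median log2 change was 0.81 over the monocyte list and -0.53 over the dendritic list, and 49.3% of all 18297 genes tested were called in this comparison.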
